A study of Mus musculus with 6 samples.

Results

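The genes described here make and load the peptides that MHC class I molecules present. They are Tap1, Tap2, Tapbp, Psmb8, Psmb9, Psmb10, Psme1, Erap1, B2m and Nlrc5, chosen by name, and all 10 were found among the 23337 genes of the count table. The table came from polyA-selected RNA-seq of leukaemia initiating cells (LICs) of mice, sorted cells that can propagate a leukaemia. It held 3 libraries of LICs from adult leukaemia (replicates 1, 2 and 4) and 3 of LICs from neonatal leukaemia (replicates 4, 7 and 8), and haematopoietic stem and progenitor cells were given as the source of both groups. The labels gave no strain, genotype, leukaemia driver, treatment or exact age for either group, and did not state whether replicates were separate animals. The p-values therefore reflect the spread among these libraries alone, and that spread could be technical. Values by library are given in the order of replicates 1, 2 and 4 for adult and 4, 7 and 8 for neonatal LICs.

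MHC class I molecules show cytosolic peptides on the cell surface, where CD8 T cells inspect them. The proteasome cuts proteins into peptides, and in haematopoietic cells its standard catalytic subunits can be replaced by the immunoproteasome subunits Psmb8, Psmb9 and Psmb10. The TAP1-TAP2 transporter carries the peptides into the endoplasmic reticulum, tapasin (Tapbp) holds the transporter next to empty class I molecules, ERAP1 trims the peptides, and B2M is the light chain of the complex. NLRC5 is a transactivator of many of these genes, and interferon-gamma is their best known inducer. In leukaemia the pathway is studied because cells that lower it can be less visible to T cells.

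The libraries were of uneven depth. Neonatal replicate 4 held 3932833 counts, while the other 5 held 60113466 to 66132051. Levels are given as CPM, counts scaled to the TMM-adjusted library size, and as RPKM, CPM per kilobase of exon, where genes are compared with each other. Because neonatal replicate 4 also stood apart from the other neonatal libraries, log2 fold changes are given from fits with it and without it. Xist ranged from 51.7 to 186 CPM over the neonatal libraries against 0.610 to 0.919 over the adult ones, and Ddx3y from 98.8 to 154 CPM over the adult libraries against 1 count in all neonatal libraries together, so age and the sex of the cells cannot be told apart. Ptprc, the pan-leukocyte gene, was at 144 to 323 CPM in all 6 libraries. The 7 progenitor or LIC markers, Ptprc among them, summed to 1917 to 11093 CPM over the adult and 1383 to 2663 over the neonatal libraries. Of these 7, 3 had a positive log2 fold change on 6 libraries and 4 a negative one (median -0.53). Of markers of other cells, the B cell genes Ms4a1 and Pax5 and the T and NK cell genes Cd3e, Cd3g and Ncr1 had 0 counts in every library (a floor of 3 counts equals 0.763 CPM for neonatal replicate 4 and no more than 0.0499 CPM elsewhere, counting error only). The B cell markers summed to 28.5 to 69.4 CPM in the adult and 72.0 to 147 in the neonatal libraries, nearly all of it Cd79b (28.3 to 68.5 and 70.7 to 146), and these groups did not overlap. The T and NK cell markers summed to 47.8 to 113 CPM over the adult libraries, 37.4 and 56.4 in neonatal replicates 7 and 8, and 272.6 in neonatal replicate 4, mostly Nkg7. The summed level of 8 mature neutrophil markers ranged from 1756 to 14311 CPM over the adult libraries and from 13.9 to 155 over the neonatal ones. That of 8 macrophage markers was 206 to 750.2 and 269.5 to 486 CPM, with C1qa, C1qb and C1qc each below 4 CPM on average in both groups. On 6 libraries 7 of these 8 had a negative log2 fold change (median -3.28) and 5 were without overlap and lower, while Cd68 was without overlap and higher, at 70.7 to 92.8 CPM over adult and 193 to 284 over neonatal libraries. The sum of 8 dendritic cell markers was 30.5 to 38.3 and 40.5 to 69.7 CPM. Whether such cells contributed to the results below was not tested, and in bulk samples fewer cells of a type and less RNA per cell cannot be told apart.

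The transporter and tapasin genes rose 3.15-fold to 4.44-fold in neonatal LICs when neonatal replicate 4 was left out, and with it none of the 3 passed edgeR's test, although limma voom with library quality weights called Tap1 and Tapbp on 6 libraries (adjusted p = 0.0318 and 0.0360). Tap2 (chromosome 17, 34204479 to 34216321, mm10), the second chain of the peptide transporter, was at 114.6, 140.1 and 169 CPM by adult library against 40.9, 659 and 585 by neonatal library. Neonatal replicates 7 and 8 thus lay far above every adult library, and neonatal replicate 4 below every one. The log2 fold change of Tap2, neonatal minus adult, was 1.60 ± 0.82 (approximate SE) on 6 libraries (edgeR adjusted p = 0.507) and 2.15 ± 0.21 without neonatal replicate 4 (edgeR adjusted p = 0.0273, range over 20 alternatives 5.84e-17 to 0.826). Here and below, the alternatives are variants of the 6-library fit, and most of them kept neonatal replicate 4. The fit without that library is itself among them, so the range is not that of this fit alone.

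Tap1 (chromosome 17, 34187556 to 34197225), the partner of Tap2 in the transporter, stood at 45.5, 34.2 and 60.2 CPM for adult replicates against 27.2, 157 and 156 for neonatal ones. The pattern was that of Tap2, with 2 neonatal libraries above and 1 below the adult range. Its log2 fold change was 1.29 ± 0.61 (SE) on 6 libraries (edgeR adjusted p = 0.471) and 1.76 ± 0.26 without neonatal replicate 4 (edgeR adjusted p = 0.0360, range 2.62e-07 to 0.832). Tapbp (chromosome 17, 33919478 to 33929290), which encodes tapasin, was at 123, 158 and 127 CPM across the adult libraries and 105.5, 412 and 440.4 across the neonatal ones. Here too neonatal replicate 4 lay below the adult libraries. The log2 fold change of Tapbp was 1.23 ± 0.52 (SE) on 6 libraries (edgeR adjusted p = 0.402) and 1.66 ± 0.18 without that library (edgeR adjusted p = 0.0320, range 7.42e-14 to 0.734). Neonatal replicate 4 held 137 counts of Tap2, 91 of Tap1 and 353 of Tapbp. The exact Poisson 95% intervals for counting error reached up to 48.4, 33.4 and 117 CPM, all below the levels of neonatal replicates 7 and 8. Per kilobase, Tap1 was lower than Tap2 in every library, at 0.206 to 0.335 of its RPKM in adult LICs, 0.200 and 0.226 in neonatal replicates 7 and 8, and 0.561 in neonatal replicate 4.

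**Figure D1:**
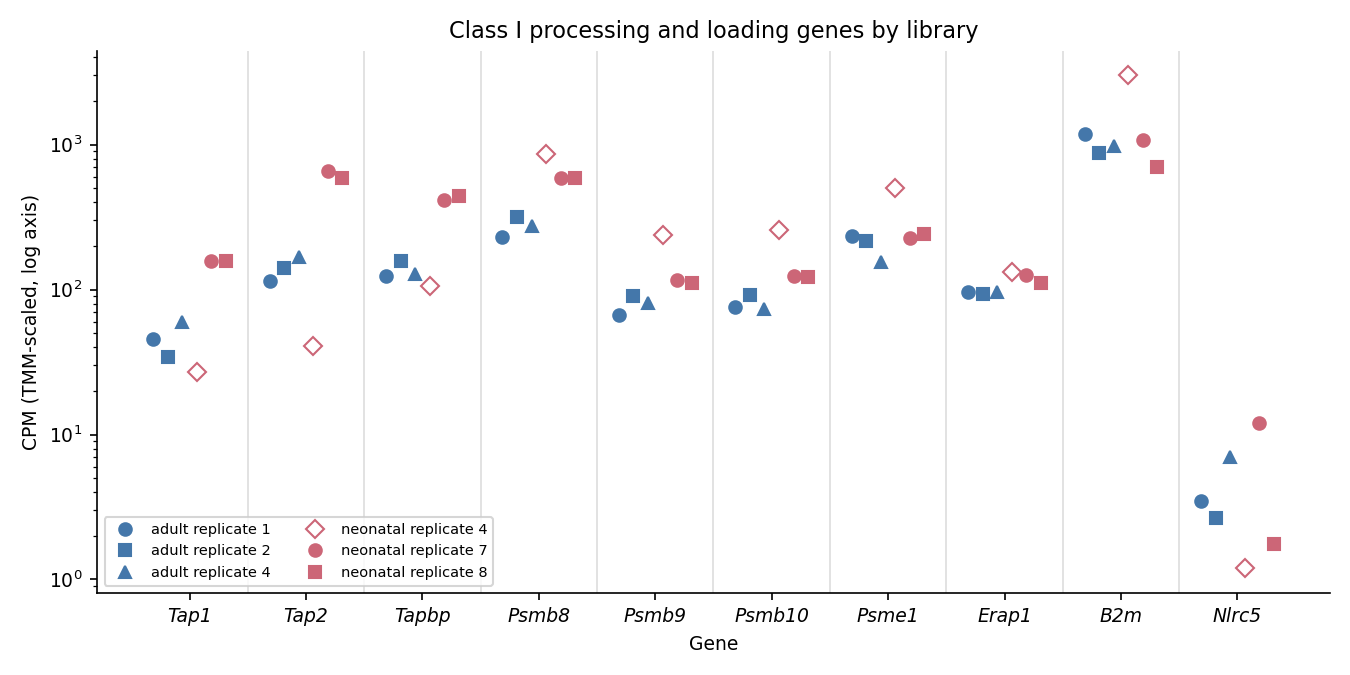
CPM of each of the 10 genes in each library, on a log axis, with adult libraries in blue, neonatal replicates 7 and 8 as filled red points and neonatal replicate 4 as open diamonds. Neonatal replicate 4 is the lowest library for Tap1, Tap2, Tapbp and Nlrc5 and the highest for Psmb8, Psmb9, Psmb10, Psme1, Erap1 and B2m.

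The 3 immunoproteasome genes were higher in all 3 neonatal libraries than in any adult library, and Psmb8 alone of them passed edgeR's test, again without neonatal replicate 4 and not with it. Psmb8 (chromosome 17, 34198195 to 34201454), the chymotrypsin-like subunit also called LMP7, was at 230.4, 317 and 276 CPM by adult library against 864, 591 and 589 by neonatal library. The groups did not overlap, and the highest neonatal library was neonatal replicate 4. The log2 fold change of Psmb8 was 1.31 ± 0.31 (SE) on 6 libraries (edgeR adjusted p = 0.164) and 1.12 ± 0.19 without neonatal replicate 4 (edgeR adjusted p = 0.0390, range 3.75e-06 to 0.452). DESeq2 called it on all 6 libraries as well (adjusted p = 0.00243).

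Psmb9 (chromosome 17, 34182099 to 34187330), also called LMP2, was at 67.0, 89.9 and 80.2 CPM for adult replicates against 236, 116 and 111 for neonatal ones. Its log2 fold change was 0.96 ± 0.37 (SE) on 6 libraries (edgeR adjusted p = 0.366) and 0.54 ± 0.19 without neonatal replicate 4 (edgeR adjusted p = 0.124, range 0.0492 to 0.722). Neonatal replicates 7 and 8 were close to each other and only a little above adult replicate 2. Psmb10 (chromosome 8, 105935728 to 105938392), the trypsin-like subunit MECL-1, was at 76.4, 92.4 and 73.3 CPM across the adult libraries and 257, 124 and 122 across the neonatal ones. As for Psmb9, neonatal replicate 4 was the highest library, with log2 fold changes of 1.05 ± 0.37 and 0.62 ± 0.18 (SE) with and without neonatal replicate 4 (edgeR adjusted p = 0.324 and 0.0849, range 0.0135 to 0.668). The subunits did not move in fixed proportion. The RPKM of Psmb9 was 0.430 to 0.442 of that of Psmb8 in adult LICs, 0.298 and 0.287 in neonatal replicates 7 and 8, and 0.414 in neonatal replicate 4. For Psmb10 the values were 0.256 to 0.319 in adult libraries, 0.202 and 0.199 in neonatal replicates 7 and 8, and 0.286 in neonatal replicate 4, within the adult range.

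**Figure D2:**
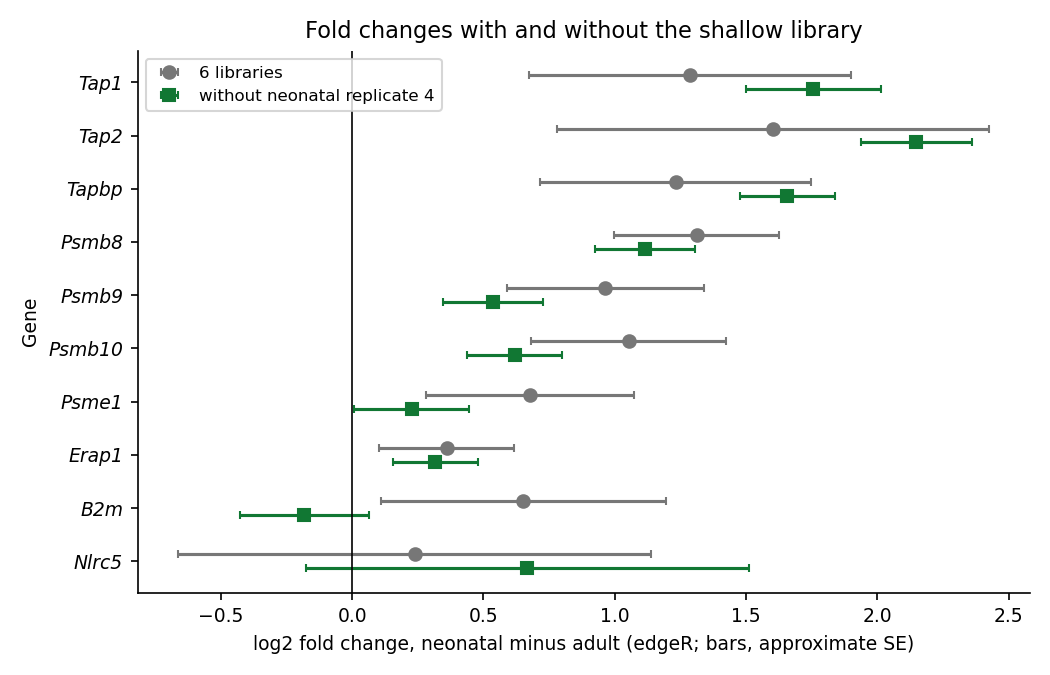
Log2 fold change, neonatal minus adult, of each gene from edgeR with all 6 libraries (grey circles) and without neonatal replicate 4 (green squares), with bars for the approximate SE. Without that library the values of Tap1, Tap2 and Tapbp are larger and their bars shorter, and B2m moves from 0.65 to -0.18.

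To ask whether the neonatal libraries held more immunoproteasome RNA relative to the standard proteasome, each inducible gene was set against its counterpart within each library, a ratio that library scaling cannot change. For the 3 catalytic pairs the ratio of RPKM was higher in every neonatal library than in every adult library, neonatal replicate 4 included. Psmb8 to Psmb5 stood at 0.741, 1.14 and 0.970 in adult replicates 1, 2 and 4 and at 1.89, 3.10 and 2.43 in neonatal replicates 4, 7 and 8, a log2 difference of 1.37 (two-sided exact permutation p = 0.10, adjusted over 4 ratios 0.133). Adult LICs thus held about as much Psmb8 as Psmb5 RNA per kilobase, and each neonatal library held more of Psmb8.

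The ratio of Psmb9 to Psmb6 was 0.260, 0.448 and 0.365 in adult and 0.563, 0.698 and 0.568 in neonatal libraries, a log2 difference of 0.80 (two-sided exact permutation p = 0.10, adjusted 0.133). That of Psmb10 to Psmb7 was 0.365, 0.605 and 0.389 in adult and 0.721, 0.865 and 0.723 in neonatal libraries, also a log2 difference of 0.80 (two-sided exact permutation p = 0.10, adjusted 0.133). With 3 libraries against 3 the test cannot give a p under 0.10, so no pair could pass. Leaving out any 1 library kept the differences between 1.20 and 1.55 for Psmb8, 0.58 and 0.98 for Psmb9 and 0.66 and 1.03 for Psmb10. The fourth pair behaved otherwise. The ratio of Psme1, a subunit of the 11S activator that interferon induces, to Psme3, the subunit of its nuclear relative, was 3.07, 3.26 and 1.58 in adult libraries and 7.53, 2.44 and 2.44 in neonatal ones (log2 difference 0.50, two-sided exact permutation p = 0.60). Neonatal replicate 4 alone was above the adult range, and without it the log2 difference was -0.04. The exon lengths of that pair are 977 and 2619 bases. Those of the catalytic pairs are 1223 and 871 (Psmb8, Psmb5), 806 and 1036 (Psmb9, Psmb6) and 1270 and 969 bases (Psmb10, Psmb7). The ratios were not recomputed with each library's trend on exon length removed, but the genes were fitted that way. On 6 libraries the edgeR log2 fold changes were then 1.27 and -0.04 (Psmb8, Psmb5), 0.89 and 0.11 (Psmb9, Psmb6). They were 0.99 and 0.19 (Psmb10, Psmb7) and 0.61 and 0.15 (Psme1, Psme3). With neonatal replicate 4 also left out, in the same order, they were 1.23 and -0.11, 0.87 and -0.10, 0.73 and 0.02, and 0.48 and 0.13.

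**Figure D3:**
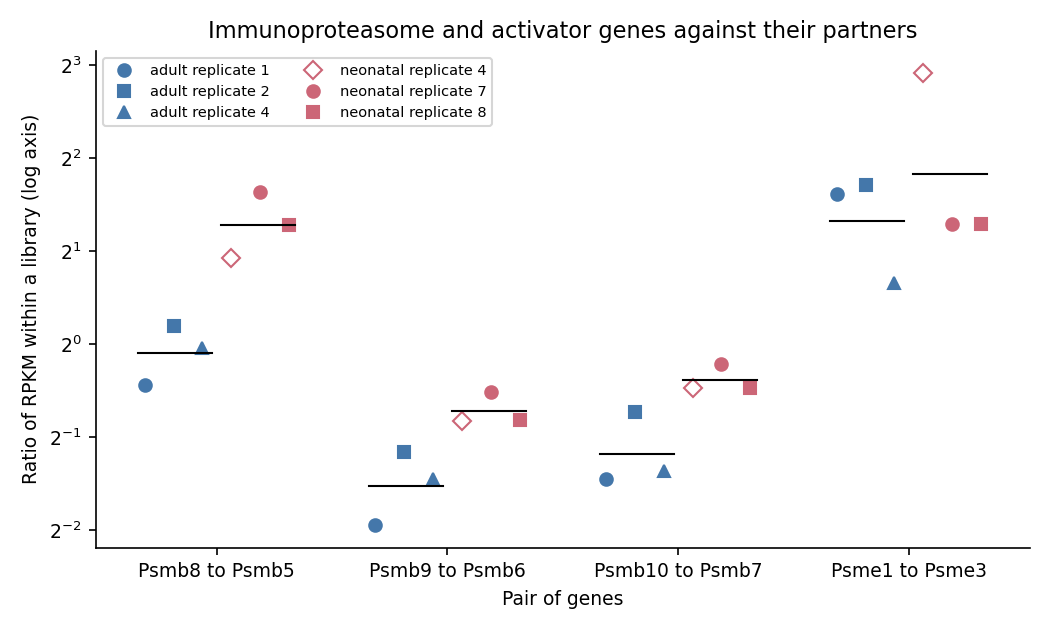
Ratio of RPKM within each library, on a log axis, for 3 immunoproteasome genes against their standard counterparts and for Psme1 against Psme3, with black lines at the mean of the log2 ratios of a group. The adult and neonatal points do not overlap for the 3 catalytic pairs and do overlap for Psme1 to Psme3.

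None of the 3 standard catalytic subunits passed edgeR's test in either fit. Without neonatal replicate 4, Psmb5 and Psmb6 were without overlap and lower in neonatal LICs, against 25.6% of genes, and Psmb7 overlapped. The ratios above thus also reflect lower CPM of these 2 partners in neonatal replicates 7 and 8. Psmb5 was at 222, 198 and 202 CPM by adult library against 325, 136 and 172 by neonatal library, and its log2 fold change was 0.02 on 6 libraries (edgeR adjusted p = 0.990) and -0.42 without neonatal replicate 4 (edgeR adjusted p = 0.189, range over alternatives 0.130 to 0.999). Psmb6 and Psmb7 had log2 fold changes of 0.20 and 0.28 on 6 libraries and -0.31 and -0.22 without it (edgeR adjusted p = 0.902, 0.851, 0.324 and 0.506). The lower values without neonatal replicate 4 were smaller once each library's trend on exon length was also removed, a setting added after the data were seen. In that setting Psmb5, Psmb6 and Psmb7 had log2 fold changes of -0.11, -0.10 and 0.02. Of 28 other genes of the standard proteasome core and its regulatory particle, none passed edgeR's test in either fit. Their median log2 fold change was 0.12 on 6 libraries, with 22 positive, against 53.5% of all genes, and -0.20 without neonatal replicate 4, with 8 positive, against 48.0%. Without that library 14 of the 28 were without overlap and lower in neonatal LICs, against 25.6% of genes, and 2 were higher, against 25.0%. Whether exon length bore on the values of these 28 genes was not tested.

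Psme1, Erap1 and B2m did not pass in any of the 20 alternatives. Psme1 (chromosome 14, 55578494 to 55581527) was at 234, 217 and 155 CPM for adult replicates against 501, 226.5 and 243 for neonatal ones. Its groups overlapped, and the log2 fold change of 0.68 ± 0.40 (SE) fell to 0.23 ± 0.22 without neonatal replicate 4 (edgeR adjusted p = 0.564 and 0.531, range 0.158 to 0.842). In the counted annotation 4 of its exon bases also belong to Fam158a.

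Erap1 (chromosome 13, 74639872 to 74691875), the trimming peptidase, was the steadiest of the genes, at 96.8, 93.4 and 96.9 CPM across the adult libraries and 132, 125 and 111 across the neonatal ones. The groups did not overlap, but the difference was small, with a log2 fold change of 0.36 ± 0.26 (SE) on 6 libraries and 0.32 ± 0.16 without neonatal replicate 4 (edgeR adjusted p = 0.659 and 0.242, range 0.168 to 0.938). B2m (chromosome 2, 122147687 to 122153082) was at 1189.6, 877 and 973 CPM by adult library against 3005, 1069 and 705 by neonatal library. Neonatal replicate 8 was the lowest of the 6 libraries and neonatal replicate 4 by far the highest, so that the log2 fold change of 0.65 ± 0.54 (SE) on 6 libraries turned to -0.18 ± 0.25 without neonatal replicate 4 (edgeR adjusted p = 0.714 and 0.660, range 0.649 to 0.975). The log2 fold change of B2m without that library was 0.13 when each library's trend on exon length was also removed, so its sign depended on that choice.

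Nlrc5 (chromosome 8, 94472763 to 94527272), the transactivator, was low and did not follow the transporter genes. It stood at 3.49, 2.63 and 7.03 CPM for adult replicates against 1.20, 12.1 and 1.75 for neonatal ones. Neonatal replicates 7 and 8, which were nearly equal for Tap1, Tap2, Tapbp and Psmb8, were thus the highest and the second lowest library for Nlrc5. The value of neonatal replicate 4 rests on 4 counts (exact Poisson 95% interval 0.326 to 3.06 CPM). The log2 fold change was 0.24 ± 0.90 (SE) on 6 libraries and 0.67 ± 0.84 without neonatal replicate 4 (edgeR adjusted p = 0.953 and 0.639, range 0.591 to 0.999), and it was -1.53 without neonatal replicate 7.

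The counts over the 10 genes, which were chosen with earlier results of these data known and are no independent support, depended on neonatal replicate 4. On 6 libraries 0 of 10 passed edgeR's test, against 0.0527% of the 13272 genes tested. At an unadjusted p under 0.05 there were 4 of 10, against 11.9%. DESeq2 called 1 of 10, against 5.75% of genes, and limma voom 0 of 10, against 0.0527%. With library quality weights limma voom called 3 of 10, against 7.96%. In 4 of 10, Psmb8, Psmb9, Psmb10 and Erap1, every neonatal library was above every adult library, against 7.67% of genes, and in none was it below, against 12.0%. All 10 log2 fold changes were positive, as were 53.5% of all genes, and their median was 1.01 against 0.05 over all genes tested. Without neonatal replicate 4, edgeR called 4 of 10 higher (Tap1, Tap2, Tapbp and Psmb8), against 3.72% of 13856 genes, and 0 of 10 lower, against 2.25%. DESeq2 without that library called 6 of 10, Psmb9 and Psmb10 with these 4, against 25.0%, and at an unadjusted edgeR p under 0.05 there were 6 of 10, against 29.5%. Then 7 of 10 were without overlap and higher, against 25.0%, 9 of 10 log2 fold changes were positive, against 48.0%, and their median was 0.64 against -0.05.

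In neonatal replicates 7 and 8, but not in neonatal replicate 4, the transporter and tapasin stood higher in the order of levels per kilobase than in adult LICs. In adult LICs the mean RPKM was 1181 for B2m, 224 for Psmb8, 207 for Psme1, 98.1 for Psmb9, 63.5 for Psmb10, 56.7 for Tap2, 49.5 for Tapbp, 23.8 for Erap1, 15.8 for Tap1 and 0.631 for Nlrc5. Psmb8 and Psme1, Psmb10 and Tap2, and Tap2 and Tapbp had overlapping adult ranges. In neonatal replicates 7 and 8 Tap2 stood at 265 and 235 RPKM, beside Psme1 at 232 and 249, and Tapbp at 149.8 and 160.1, just above Psmb9 at 144 and 138. In neonatal replicate 4 Tap2 was at 16.4 and Tapbp at 38.4 RPKM, while Psmb9 was at 293.

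Among these genes the difference between neonatal replicate 4 and replicates 7 and 8 varied with exon length. The largest difference was that of Tap2, not that of the longest gene, and the cause of the split was not tested. Relative to the mean of the other neonatal libraries (log2 CPM, prior count 2), neonatal replicate 4 was higher by 1.79 for B2m (858 bases of exon), 1.10 for Psme1 (977 bases), 1.05 for Psmb9 (806 bases), 1.06 for Psmb10 (1270 bases) and 0.55 for Psmb8 (1223 bases). It was lower for the longer genes, with differences of -3.92 for Tap2 (2490 bases), -2.52 for Tap1 (2950 bases), -2.01 for Tapbp (2750 bases) and -1.92 for Nlrc5 (6945 bases). Erap1, at 4014 bases, was the exception with 0.16. All genes tested showed the same direction, with a median difference of 1.29 for 1200 genes under 1000 bases, 0.64 from 1000 to 1500, -0.02 from 1500 to 2500, -0.55 from 2500 to 4000 and -0.84 above. Tap2, Tap1 and Tapbp lay well below the median of their length class, at percentiles 3.58, 10.9 and 15.8 of all genes. Across the 10 genes, which share these libraries, Pearson's r between the difference and log2 exon length was -0.70, against -0.31 across the 13272 genes. With each library's trend on exon length removed, the log2 fold changes on 6 libraries were 1.22 for Tap1, 1.5 for Tap2, 1.19 for Tapbp and 1.27 for Psmb8, and 0 of 10 passed (edgeR adjusted p from 0.121 to 0.884), against 0.0678% of all genes. With the trend removed and neonatal replicate 4 left out, a setting added after the data were seen, the same 4 genes passed as without the removal: Tap1, Tap2, Tapbp and Psmb8 (edgeR adjusted p = 0.0416, 0.0274, 0.0349 and 0.0425), against 3.46% of all genes.

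**Figure D4:**
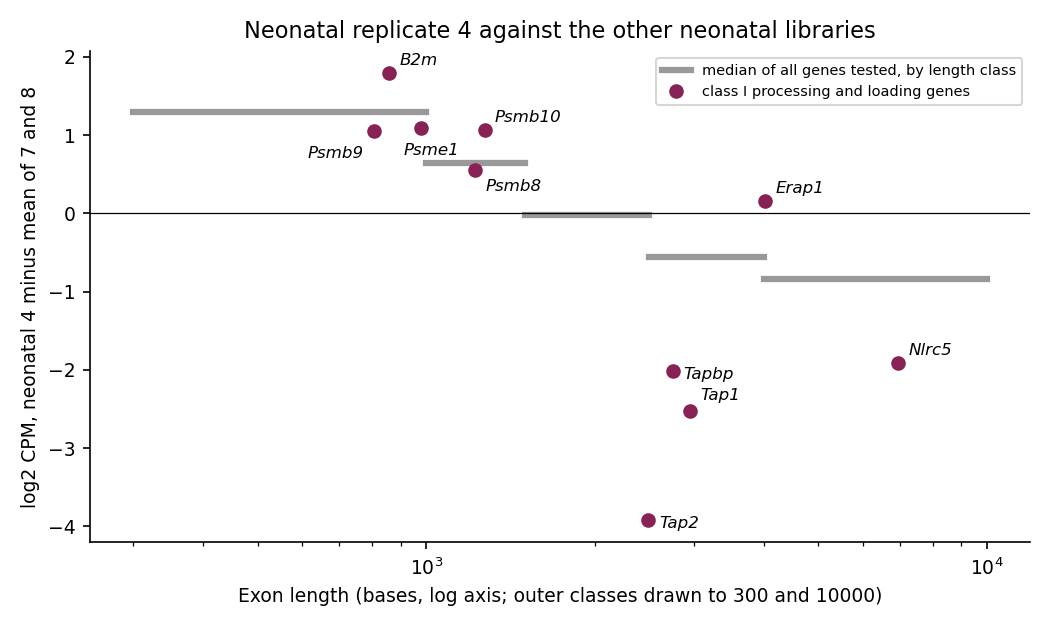
Difference in log2 CPM between neonatal replicate 4 and the mean of neonatal replicates 7 and 8, by exon length in bases on a log axis, for the 10 genes (points) and as the median of all genes tested in 5 length classes (grey lines). The short genes lie above 0, and Tap2, Tap1 and Tapbp lie far below the line of their class.

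Tap1 and Psmb9 are transcribed away from each other from a shared interval, so their upstream sequence is a single stretch. The log2 fold change was 1.29 ± 0.61 (SE) for Tap1 and 0.96 ± 0.37 for Psmb9 on 6 libraries. Without neonatal replicate 4 the values were 1.76 and 0.54. Whether the shared interval bears on the level of either gene was not tested. RefSeq promoter windows (GRCm38.p6, the assembly of mm10) of 300 bases, 250 before the start and 50 after, were found for 8 of the 10 genes, not for Tap2 and Nlrc5. They were searched on both strands for the core of the interferon-stimulated response element (ISRE, 2 copies of GAAA with any 2 bases between them), the CCAAT box, the GC box (GGGCGG), the cAMP response core site (TGACG) and the kappaB consensus. The shared interval is printed whole, on the strand of Tap1, beside the 250 bases before the start of Tapbp and Psmb8, which rose without neonatal replicate 4, and of B2m, which did not. Capitals mark every match, and no match overlaps one of another motif. The intervals are chr17:34187331-34187555 (plus strand), chr17:33919228-33919477 (plus), chr17:34197945-34198194 (plus) and chr2:122147437-122147686 (plus).
Tap1-Psmb9: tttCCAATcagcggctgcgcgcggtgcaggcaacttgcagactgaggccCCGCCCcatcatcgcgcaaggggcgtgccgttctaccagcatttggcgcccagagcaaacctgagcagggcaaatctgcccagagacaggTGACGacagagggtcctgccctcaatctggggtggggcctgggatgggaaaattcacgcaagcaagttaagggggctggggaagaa
Tapbp: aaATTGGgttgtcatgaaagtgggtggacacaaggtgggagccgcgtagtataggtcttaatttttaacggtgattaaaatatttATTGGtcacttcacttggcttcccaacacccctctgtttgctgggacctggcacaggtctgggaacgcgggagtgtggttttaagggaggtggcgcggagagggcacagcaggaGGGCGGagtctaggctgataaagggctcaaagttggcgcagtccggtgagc
Psmb8: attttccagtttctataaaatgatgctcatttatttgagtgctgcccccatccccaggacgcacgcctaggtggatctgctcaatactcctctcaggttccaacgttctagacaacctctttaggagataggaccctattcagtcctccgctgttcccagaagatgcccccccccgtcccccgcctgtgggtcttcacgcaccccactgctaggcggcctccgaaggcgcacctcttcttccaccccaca
B2m: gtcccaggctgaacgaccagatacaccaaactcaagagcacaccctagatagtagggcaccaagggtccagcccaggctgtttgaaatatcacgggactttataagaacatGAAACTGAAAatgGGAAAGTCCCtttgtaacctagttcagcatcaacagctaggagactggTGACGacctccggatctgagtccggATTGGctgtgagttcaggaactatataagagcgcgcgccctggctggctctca

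The interval of 225 bases between Tap1 and Psmb9 held 1 CCAAT box, 1 GC box and 1 core site, and no ISRE core or kappaB match. The B2m stretch held 1 ISRE core, 1 kappaB match, 1 core site and 1 CCAAT box. That of Tapbp held 2 CCAAT boxes and 1 GC box, and that of Psmb8 held no match to any of the 5 motifs. Among the 8 windows the ISRE core was found in those of B2m, Erap1 (positions -4 to 6 about the start) and Psme1 (positions 10 to 19). Of 32851 RefSeq windows of that length, 3.44% held the ISRE core, 37.4% the CCAAT box, 35.7% the GC box, 20.8% the core site and 8.46% the kappaB consensus. These matches describe letters in the windows and were not tested against the expression values.

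Other genes of the pathway were mixed. Of 18 further processing and loading genes, none passed edgeR's test on 6 libraries, and 2 rose without neonatal replicate 4, where 3.72% of all genes were called higher and 2.25% lower: Sec61a1, a subunit of the channel into the endoplasmic reticulum, and Ganab, the glucosidase that trims glycans of new glycoproteins. Sec61a1 was at 175, 184 and 239.6 CPM across the adult libraries and 139.9, 452 and 384 across the neonatal ones, a log2 fold change of 0.71 on 6 libraries (edgeR adjusted p = 0.606) and 1.08 without neonatal replicate 4 (edgeR adjusted p = 0.0431, range over alternatives 6.66e-05 to 0.909). Ganab was at 92.5, 80.7 and 119.9 CPM by adult library against 32.6, 228 and 192 by neonatal library, a log2 fold change of 0.63 on 6 libraries (edgeR adjusted p = 0.768) and 1.11 without neonatal replicate 4 (edgeR adjusted p = 0.0450, range 0.00023 to 0.979). As for Tap1, Tap2 and Tapbp, neonatal replicate 4 was the lowest library for both. The list's median log2 fold change was 0.14 on 6 libraries and 0.0094 without neonatal replicate 4, where 4 of the 18 were without overlap and higher and 4 lower, against 25.0% and 25.6% of genes. Psme2, the partner of Psme1 in the 11S activator, was at 186, 190.0 and 162 CPM for adult replicates against 447, 175 and 173 for neonatal ones, and its log2 fold change of 0.56 became -0.03 without neonatal replicate 4. The chaperones of the loading complex, Pdia3 and Calr, had log2 fold changes of 0.21 and 0.56 on 6 libraries (edgeR adjusted p = 0.857 and 0.611) and 0.35 and 0.68 without it (edgeR adjusted p = 0.306 and 0.201).

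Of 9 tested class I heavy chain genes, 7 had a positive log2 fold change in each fit, with a median of 0.71 on 6 libraries and 0.69 without neonatal replicate 4. In 6 of them every neonatal library was above every adult one in each fit, against 7.67% of all genes on 6 libraries and 25.0% without neonatal replicate 4. H2-Q6 alone passed edgeR's test without neonatal replicate 4 (3.72% of all genes were called higher in that fit), and none passed it on 6 libraries. On 6 libraries DESeq2 and limma voom with quality weights also called H2-Q6 (adjusted p = 0.000128 and 0.0208). It was at 11.7, 6.65 and 11.5 CPM across the adult libraries and 35.6, 30.2 and 34.4 across the neonatal ones (log2 fold change 1.75 on 6 libraries, edgeR adjusted p = 0.140, and 1.71 without neonatal replicate 4, edgeR adjusted p = 0.0431, range 7.16e-05 to 0.413), and reads of this multigene family are hard to assign to 1 copy. Unlike B2m, the heavy chain list thus kept its median when neonatal replicate 4 was left out, although the difference between the 2 was not tested.

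Among 19 regulators of class I genes, Rela, a subunit of NF-kappaB, was the 1 gene that passed edgeR's test without neonatal replicate 4, where 3.72% of all genes were called higher, and none passed on 6 libraries. Fold changes over this list were of either sign. Of 18 tested on 6 libraries 11 were positive and 7 negative (median 0.058), against 53.5% of all genes positive. Of 19 tested without neonatal replicate 4, 12 were positive and 7 negative (median 0.22), against 48.0% positive. In that fit 8 were without overlap and higher and 2 lower, against 25.0% and 25.6% of genes. Limma voom with quality weights called Rela on 6 libraries too (adjusted p = 0.0483). It was at 71.7, 73.9 and 64.7 CPM by adult library against 46.0, 149 and 196 by neonatal library (log2 fold change 0.90 on 6 libraries, edgeR adjusted p = 0.539, and 1.31 without neonatal replicate 4, edgeR adjusted p = 0.0360, range 2.24e-07 to 0.858). Irf1, the interferon-induced activator of class I genes, was at 31.5, 43.4 and 24.7 CPM for adult replicates against 35.6, 60.2 and 62.4 for neonatal ones (log2 fold change 0.67 on 6 libraries, edgeR adjusted p = 0.532, and 0.90 without neonatal replicate 4, edgeR adjusted p = 0.0916, range 0.0222 to 0.826). DESeq2 called Irf1 without neonatal replicate 4 (adjusted p = 0.0222). Rfx5, which holds NLRC5 and CIITA at their promoters, had log2 fold changes of 0.36 and 0.70 with and without that library (edgeR adjusted p = 0.825 and 0.127). Ciita, the class II transactivator, was too low to be tested on 6 libraries, and without neonatal replicate 4 it did not pass edgeR's test. It had a mean of 0.267 CPM over the neonatal libraries and 0.0108 over the adult ones. The adult mean lies below the floor of 3 counts, and the neonatal mean below that of neonatal replicate 4 (0.763 CPM), so the size of the difference is uncertain.

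The interferon-induced genes outside antigen presentation had fold changes of either sign. Of 19 tested on 6 libraries 11 had a positive log2 fold change (median 0.16), against 53.5% of all genes, and of 20 tested without neonatal replicate 4 6 did (median -0.41), against 48.0%. None passed edgeR's test in either fit. Without that library 7 were without overlap and lower in neonatal LICs, against 25.6% of genes, and 2 were higher, against 25.0%.

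**Figure D5:**
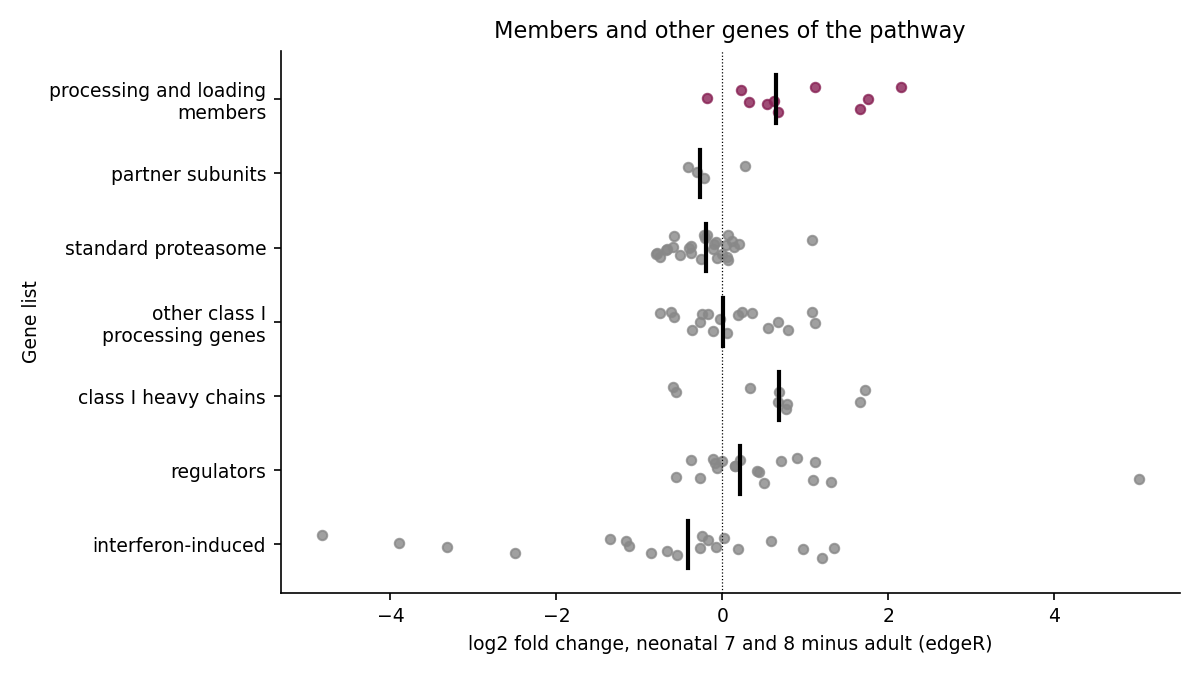
Log2 fold change of neonatal replicates 7 and 8 against the 3 adult libraries for the 10 genes (purple) and for 6 other lists of the pathway (grey), 1 point per gene tested, with a black bar at the median of each list. The medians are 0.64 for the 10 genes and 0.69 for heavy chains, and -0.20 for the standard proteasome and -0.41 for interferon-induced genes.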

How the data were processed

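Raw read counts per gene were used as deposited by the authors. Per the file headers they were made with featureCounts 1.5.1 on primary alignments, by gene identifier and without a strand option, on a UCSC annotation of mm10. DESeq2, TopHat, Bowtie and Trimmomatic appear, with no version, in the submitters' processing notes. Per the labels' protocols the library kit was NEBNext Ultra RNA with polyA selection.

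Neonatal was compared with adult over all genes with edgeR 4.0.16 in R 4.3.3 (filterByExpr with a minimum count of 10, TMM, robust quasi-likelihood F test, Benjamini-Hochberg threshold 0.05), which kept 13272 genes, or 13856 without neonatal replicate 4. The SE is the absolute log2 fold change over the square root of F, an approximation. RPKM used the exon lengths in the file. A fit in which edgeR, limma 3.58.1 or DESeq2 1.42.0 replaced a choice counted as 1 of 20 alternatives, of which 1 was added after the data were seen.

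The members and the 14 other gene lists were chosen with earlier results of these data known. All 10 members are named. Of the other lists the genes that passed in either fit are named, up to 4 per direction, with Psmb5, Psmb6, Psmb7, Psme3, Psme2, Pdia3, Calr, Irf1, Rfx5 and Ciita in every case. Some listed genes are not reported here. Of 162 listed genes 160 were in the file. Erythroid and endothelial or stromal markers were summed too, at 1.25 to 3.66 and 1.69 to 7.68 CPM over the 6 libraries. The sums of the 7 progenitor genes are given by group above.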

Additional observations from a re-analysis of the deposited data

How the results depend on the processing

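Tap1, Tap2, Tapbp and Psmb8 were called without neonatal replicate 4 or, for Tap1, Tapbp and Psmb8, with library quality weights. The exception was Psmb8, which DESeq2 called on 6 libraries. The weight given to each library was not examined. The number of the 10 genes called was 0 on 6 libraries with edgeR, 1 with DESeq2, 3 with limma voom and library quality weights, 6 with DESeq2 without neonatal replicate 4 and 4 with the exon length trend removed and neonatal replicate 4 left out. It was 0 to 4 with each library left out in turn. Over all genes the count was 7, and 759 with DESeq2, 1056 with quality weights, 0 with chromosomes X and Y left out, 3320 with DESeq2 without neonatal replicate 4, 479 with the length trend removed and that library left out, and 1 to 828 with each library left out. Genes without overlap and higher in neonatal numbered 4 to 7 of 10 with each library left out, and those lower 0 to 1 (Nlrc5, without neonatal replicate 7).

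Signs turned as follows. B2m was at -0.020 with quality weights, at -0.18 with DESeq2 without neonatal replicate 4, and at -0.18 to 1.0 with each library left out. It stayed positive, at 0.13, with the length trend removed and neonatal replicate 4 left out. Nlrc5 was at -0.026 without adult replicate 2, and at -1.53 (neonatal replicate 7) to 0.76 with each library left out. Psmb5 was at -0.19 with limma voom, -0.38 with quality weights, -0.075 with library totals alone, -0.040 with the length trend removed, -0.42 (neonatal replicate 4) to 0.26 with each library left out, -0.41 with DESeq2 without neonatal replicate 4 and -0.11 with the length trend removed and that library left out. Psmb6 was at -0.0018 with limma voom, -0.23 with quality weights, -0.31 with DESeq2 without neonatal replicate 4, -0.31 to 0.44 with each library left out, and -0.10 with the length trend removed as well. Psmb7 was at -0.15 with quality weights, -0.22 with DESeq2 without neonatal replicate 4 and -0.22 to 0.51 with each library left out. Psme3 was at -0.015 to 0.27 and Psme2 at -0.033 to 0.79 with each library left out, and Psme2 at -0.029 with DESeq2 without neonatal replicate 4. The log2 difference of Psme1 to Psme3 ran from -0.040 to 0.77 with each library left out. The cause of these changes was not tested. In the shallow library Nlrc5 had 4 counts. No paired analysis was possible because the groups share only the replicate number 4.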
